A study of Mus musculus with 2 samples.

Results

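The secreted Wnt inhibitors described here are the 8 genes Wif1, Sfrp1, Sfrp2, Sfrp4, Sfrp5, Frzb, Dkk2 and Dkk3, chosen by symbol from the 31053 genes of the deposited matrices, and all 8 had at least 20 UMIs. UMIs (unique molecular identifiers) count each captured mRNA molecule once. Live heart cells of mice at postnatal days 1 (P1) and 7 (P7) were sorted by FACS with the dye 7-AAD after red blood cell lysis, and gave 1 library of 3′ UMI counts per age. Each library came from 3 pooled hearts of a single litter, digested with collagenase for 20 min at P1 and for 45 min at P7. The P1 library kept 4991 cells with 59026295 UMIs (median 10875 per cell) and the P7 library 8511 cells with 97432007 UMIs (median 10104).

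Secreted Wnt inhibitors act outside the cell. WIF1 and the secreted frizzled-related proteins (SFRP1, SFRP2, SFRP4, SFRP5 and FRZB, also called SFRP3) bind Wnt ligands and keep them from the Frizzled receptors, whereas Dickkopf proteins such as DKK2 bind the LRP5 and LRP6 co-receptors. DKK3 is a divergent Dickkopf whose action on this pathway is less clear. In the developing heart, Wnt signalling takes part in the growth of the valves, the formation of the coronary vessels and the activation of fibroblasts.

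With 1 library per age replicates were lacking, so the ages were not tested against each other. Sex and digestion time differed with age and cannot be told apart from it: Xist had 57336 UMIs at P1 and 12 at P7, and 4 Y-linked genes together had 2 and 18039. Values are CPM, the summed UMIs of a gene in a class divided by all UMIs of that class in units of 1e+06 UMIs. Each interval in parentheses is a 95% interval of counting error only. It leaves out the variation between hearts and between cells, and it is too narrow where few cells hold most UMIs. A difference between ages is given as the log2 ratio of CPM, P7 over P1, with 0.5 counts added to each sum. It was counted as past 2-fold when its size was at least 1 and the gene had at least 20 UMIs over both libraries.

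Cells were placed in exclusive classes by marker genes, none of them a member. At P1 and P7 these were 1606 and 3157 endothelial cells (Cdh5), 838 and 804 Pdgfra fibroblasts, 102 and 1320 Pi16 fibroblasts (Pi16 with Pdgfra), 162 and 92 valve-type cells (Fmod with Scx), 129 and 366 smooth muscle cells (Myh11), 177 and 322 pericytes (Kcnj8), and 47 and 21 epicardial cells (Upk3b). Immune cells (Ptprc, 321 and 412) and cardiomyocytes (Actn2, 53 and 10) were gated in the same way. No gate was passed by 1302 and 1475 cells, and 240 and 506 cells passed gates of different lineages and were left out of all classes as possible doublets. Epicardial cells that also passed a fibroblast gate were not among these and stayed epicardial.

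Markers that were not used in the gates were checked in each class. All 4 endothelial (Pecam1, Kdr, Emcn, Tie1), all 4 smooth muscle and all 5 epicardial markers had their highest CPM in their own class at both ages. The 4 fibroblast markers Col1a1, Dcn, Lum and Tcf21 were higher in Pdgfra fibroblasts than in any class other than the Pi16 and valve-type cells. The Pi16 fibroblasts held them at like levels or above. In valve-type cells Col1a1 was higher, at 6134 and 9359 CPM against 5462 and 6677 CPM in Pdgfra fibroblasts. Lum and Tcf21 were lower there, with Lum at 878 and 1281 CPM against 1393 and 2237 CPM. Tcf21 was at 144 and 159 CPM in valve-type cells against 857 and 936 CPM in Pdgfra fibroblasts. Of the valve markers Sox9, Vcan, Hapln1, Comp and Postn, 5 of 5 at P1 and 4 of 5 at P7 were highest in valve-type cells. Sox9 separated them little, at 296 CPM at P1 and 322 CPM at P7 in valve-type cells, against 278 and 235 CPM in Pdgfra fibroblasts. In Pi16 fibroblasts Sox9 was at 247 and 216 CPM. Summed over the 5 markers, valve-type cells had 4888 and 4412 CPM and Pi16 fibroblasts, the next class, 3734.5 and 3786 CPM. Comp, a cartilage and tendon matrix gene, was at 75.3 and 394 CPM in valve-type cells but below 1 CPM in both fibroblast classes. Fmod and Scx also mark tendon and other fibrous tissue, so the class is called valve-type only. The Pi16 class led for 1 of 4 of its markers at P1 and 2 of 4 at P7, with Ly6c1 highest in endothelium, and pericytes led for 3 of 4. Lung-type genes (Hoxa5, Tbx4 or Foxf1) had a UMI in 55.3% of the P1 epicardial cells and 9.52% at P7, against 3.46% and 0.746% of the Pdgfra fibroblasts. The files shared 18 barcodes, of which 13 were kept in both libraries.

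Promoter stretches are shown for 3 members: Wif1 and Sfrp2, whose level was highest in valve-type cells at both ages, and Dkk2, most of whose UMIs lay in endothelium. The RefSeq promoter table (GRCm38.p6) matched 5 of the 8 members by symbol. Sfrp5 is not shown, as it had few UMIs. Frzb is not shown, because its stretch overlaps the gene as annotated by GENCODE, and Sfrp1, Sfrp4 and Dkk3 have no entry in the table. Each line gives 200 bases, from 250 to 51 bases before the RefSeq start, 5′ to 3′ on the strand of the gene. Wif1 is at chr10:121033754-121033953 (plus strand), Sfrp2 at chr3:83766071-83766270 (plus strand) and Dkk2 at chr3:132085042-132085241 (plus strand). Capitals mark CTTTG or its reverse complement CAAAG, the core of the site bound by the TCF/LEF factors of the Wnt pathway.
Wif1: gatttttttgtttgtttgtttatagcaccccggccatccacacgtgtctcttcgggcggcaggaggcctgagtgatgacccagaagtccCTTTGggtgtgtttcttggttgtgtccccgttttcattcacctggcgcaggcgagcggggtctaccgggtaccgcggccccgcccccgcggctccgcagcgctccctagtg
Sfrp2: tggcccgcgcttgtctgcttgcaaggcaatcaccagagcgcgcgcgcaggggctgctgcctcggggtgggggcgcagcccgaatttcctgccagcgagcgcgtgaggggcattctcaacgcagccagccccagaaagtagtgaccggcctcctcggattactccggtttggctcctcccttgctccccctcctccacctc
Dkk2: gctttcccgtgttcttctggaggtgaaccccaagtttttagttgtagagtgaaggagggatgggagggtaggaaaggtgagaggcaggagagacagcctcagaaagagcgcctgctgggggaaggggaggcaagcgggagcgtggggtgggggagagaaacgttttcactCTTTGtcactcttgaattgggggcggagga
The core was found once each in Wif1 and Dkk2 and was not in the Sfrp2 stretch, and 42.3% of the 32851 promoters in the table held it on either strand in the same window. An E-box (CANNTG, its own reverse complement) was found at 2 places in the Wif1 stretch and in neither of the others, overlapping no CTTTG, and 59.0% of all promoters held one. These matches describe the letters of the window alone.

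In the whole libraries, the levels of the 8 members differed little between ages. Only Sfrp5 was past 2-fold (lower at P7, with 20 and 16 UMIs), or 1 of 8 members where 12.9% of all genes tested were past 2-fold (4.07% higher and 8.88% lower at P7). The median log2 ratio was 0.03 over the members and -0.00414 over all genes tested. The level of Sfrp1 was 119 CPM in the P1 library and 157 CPM in the P7 library, with Sfrp2 at 181 and 153 CPM. Frzb and Dkk3 were lower at P7, with log2 ratios of -0.47 (-0.53 to -0.40) and -0.46 (-0.51 to -0.41). Wif1, with 0.31 (0.18 to 0.44), Sfrp4, with 0.65 (0.15 to 1.19), and Dkk2, with 0.48 (0.15 to 0.83), were higher, although Wif1 turned to -0.06 as the mean of per-cell CPM. These library values mix the level within a class with the share of the class among the cells. With the 7 classes weighted equally at both ages, the log2 ratio was 2.03 for Wif1 and 0.47 for Sfrp2, and it turned to -0.84 for Sfrp4 and -0.31 for Dkk2.

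Among the 7 main classes, from endothelium to epicardium as listed above, valve-type cells had the highest level of most members. Of the 7 members with at least 20 UMIs over these classes, 5 were highest in valve-type cells at P1 and 5 at P7, whereas 13.4% and 12.2% of all genes tested had their highest level there. Wif1, Sfrp1, Sfrp2 and Dkk3 led there at both ages, with Dkk2 at P1 and Frzb at P7, but 10 of the 16 Dkk2 UMIs at P1 lay in a single cell. The top class was at least 2-fold above the second for 5 of the 7 at P1, where 17.5% of all genes were, and for 3 at P7, where 20.3% were. Wif1, Sfrp2 and Dkk3 were so at both ages. The others at P1 were Dkk2, with most UMIs in that single cell, and Sfrp4, with 6 UMIs in Pi16 fibroblasts against 1 in epicardial cells and overlapping intervals. After thinning each cell to 2000 UMIs, at least 3 of the 8 members were found together in 22.2% of the valve-type cells at P1 and 43.5% at P7, against 2.55% and 3.13% of the Pdgfra fibroblasts.

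**Figure D1:**
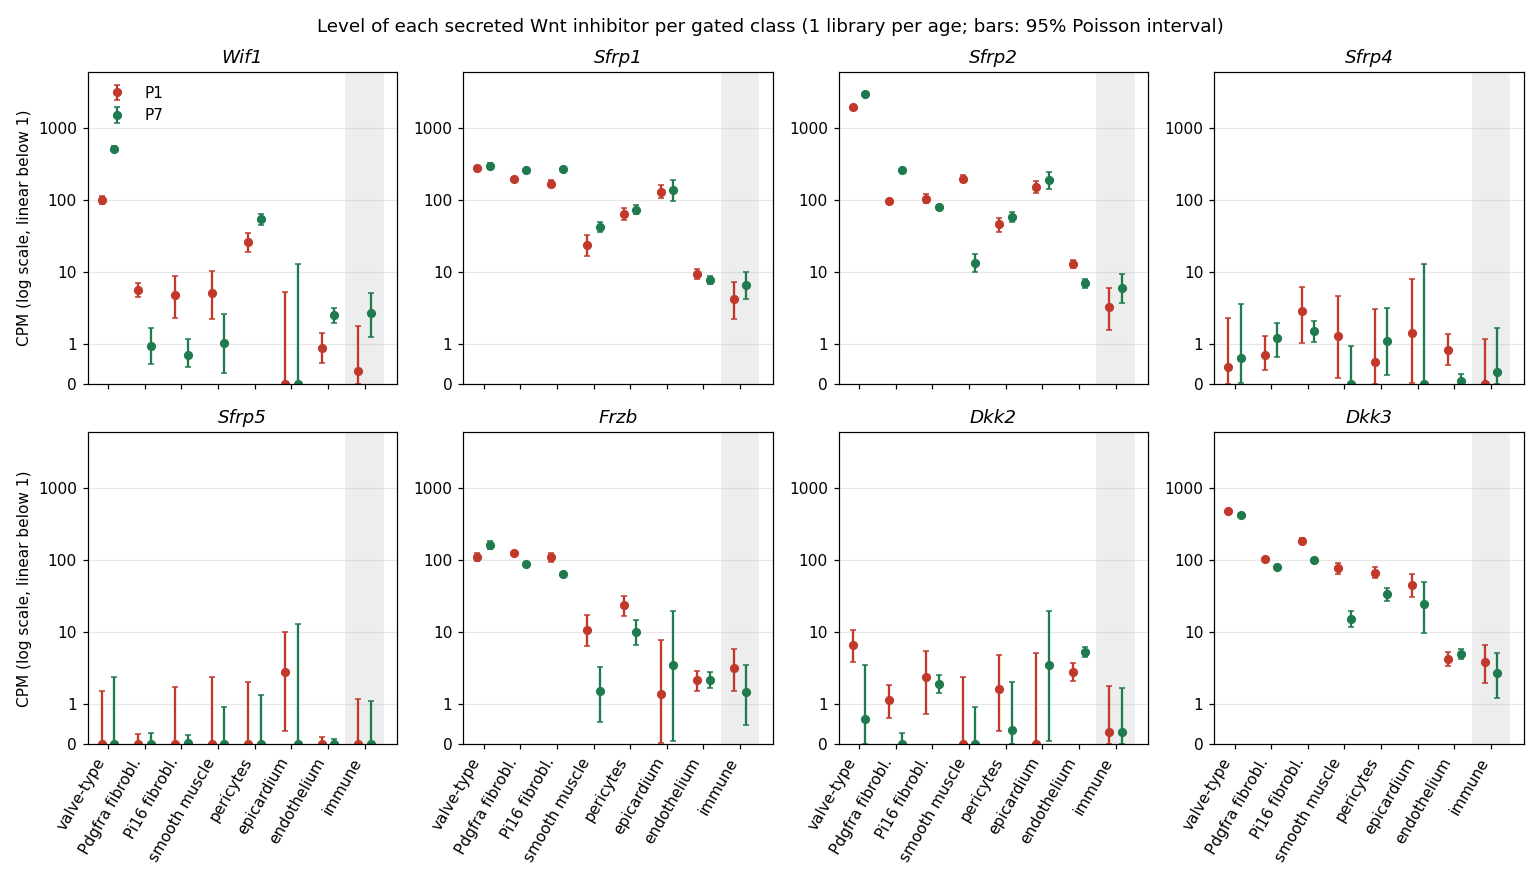
CPM of each secreted Wnt inhibitor (y axis, logarithmic above 1) in 8 gated classes (x axis) at P1 (red) and P7 (green), with 95% Poisson intervals of counting error as bars and immune cells, the background, shaded. Wif1 in valve-type cells lies at 98.7 CPM for P1 and 517 CPM for P7.

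Wif1 (Wnt inhibitory factor 1, ENSMUSG00000020218, chr10:121033960-121100650, plus strand, GRCm38, GENCODE M21) had its highest level of the 7 main classes in valve-type cells and was higher there at P7. Its level in these cells went from 98.7 CPM (86.5 to 112) at P1 to 517 CPM (482 to 554) at P7, a log2 ratio of 2.39 (2.18 to 2.60), and this ratio stayed between 2.13 and 2.50 under all 13 alternative settings. Wif1 was the 1 member of 5 past 2-fold in this class, where 6.91% of all genes were (2.97% higher and 3.94% lower). Markers of the class also differed between ages, with Comp at 75.3 and 394 CPM, Hapln1 at 67.8 and 24.4 CPM and Vcan at 743 and 420.1 CPM, and the part of the make-up of the class in the Wif1 difference was not tested. The share of valve-type cells with a Wif1 UMI was 34% at P1 and 65.2% at P7. At an equal depth of 2000 UMIs these shares were 13.6% and 38%. Immune cells, which served as background, had a Wif1 UMI in 0.312% and 0.243% of cells. Median depths were 13649.5 and 16443.5 UMIs in valve-type cells and 7737 and 6189 UMIs in immune cells. Both more cells with Wif1 and more UMIs per cell contributed, since 9 of 162 cells at P1 and 24 of 92 at P7 had 10 or more Wif1 UMIs. The largest number in a single valve-type cell was 16 at P1 and 67 at P7. Among cells of different lineages it was 55 at P1 and 46 at P7. Among cells without a gate it was 43 and 42, so cells rich in Wif1 were also present at P1 outside the class.

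Within the valve-type class, the cells with at least 2 Wif1 UMIs (42 at P1 and 51 at P7) held 94.5% and 98.9% of its Wif1 UMIs. Prg4, which encodes the lubricant proteoglycan 4, led the genes that set these cells apart from the valve-type cells without Wif1 at both ages, with 570 against 69.9 CPM at P1 and 577 against 78.1 CPM at P7. The collagen IX gene Col9a1 was also higher in them, at 447 against 186 CPM and at 251 against 68.8 CPM. Npy, which encodes neuropeptide Y, was at 372 against 103 CPM and at 530 against 191 CPM. By size of the ratio, Col9a1 ranked 13 at P1 and 9 at P7, and Npy ranked 3 and 24. These genes were picked after their values were seen. Median depth was 14220 UMIs in the Wif1-bearing cells and 13457 in the others at P1, and 17074 and 16015 at P7.

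Valve-type cells held 236 of the 738 Wif1 UMIs at P1 and 803 of the 1509 at P7. Cells without a gate held 184 and 233 of them (20.5 and 20.9 CPM). Cells of different lineages held 154 and 211 (31.9 and 23.1 CPM). In the other main classes the level of Wif1 was below that of valve-type cells, and in some of them a few cells held most of its UMIs. In pericytes it went from 25.9 CPM (19 to 34.5) at P1 to 53.6 CPM (45.3 to 63) at P7, a log2 ratio of 1.04 (0.57 to 1.55), but 6 cells held 46 of the 47 UMIs at P1 and 7 cells held 143 of the 147 UMIs at P7. Rspo3, which encodes a secreted enhancer of Wnt signalling, had UMIs in 5 of these 6 cells and in 6 of the 7, at 451 CPM against 1.73 CPM in pericytes without Wif1 at P1 and at 412 against 0 CPM at P7. Without cells with a Fmod or Scx UMI, the pericyte ratio turned to -1.05. In endothelium Wif1 was at 0.899 and 2.51 CPM, a log2 ratio of 1.45 (0.70 to 2.34), and a single P7 cell held 55 of the 70 UMIs. Without the cell with the most UMIs in each library that ratio was -0.56. In Pdgfra fibroblasts the level went from 5.64 CPM (4.46 to 7.03) at P1 to 0.956 CPM (0.494 to 1.67) at P7, and in Pi16 fibroblasts from 4.75 CPM (2.28 to 8.74) at P1 to 0.733 CPM (0.434 to 1.16) at P7. The Pdgfra value turned from -2.51 to 0.79 with gates at 1 UMI, and the Pi16 values rested on 10 UMIs at P1 and 18 at P7.

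Across the whole libraries, 67 cells at P1 and 89 at P7 had at least 3 Wif1 UMIs. Of these, 79.1% at P1 and 91.0% at P7 also had a UMI of Fmod or Scx, the genes of the valve-type gate, against 11.5% and 4.12% of all other cells. The valve-type gate itself took in 25 of the 67 and 48 of the 89, and 15 at each age passed no gate. The 27 cells without a gate that had at least 2 Wif1 UMIs at P1 had Rspo3 at 517 CPM and Wnt16 at 238 CPM, whereas gateless cells without Wif1 had 16.4 and 14.6 CPM. At P7, 19 such cells had Rspo3 at 132 against 4.63 CPM and Wnt16 at 136 against 2.27 CPM. Col9a1 was at 248 against 20.8 CPM at P1 and at 208 against 1.42 CPM at P7. Fmod, at 375 against 9.63 CPM at P7, was not among the 25 leading genes at P1. The gateless cells with Wif1 were much deeper, with medians of 11463 against 3409 UMIs at P1 and 13254 against 4349 at P7.

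**Figure D2:**
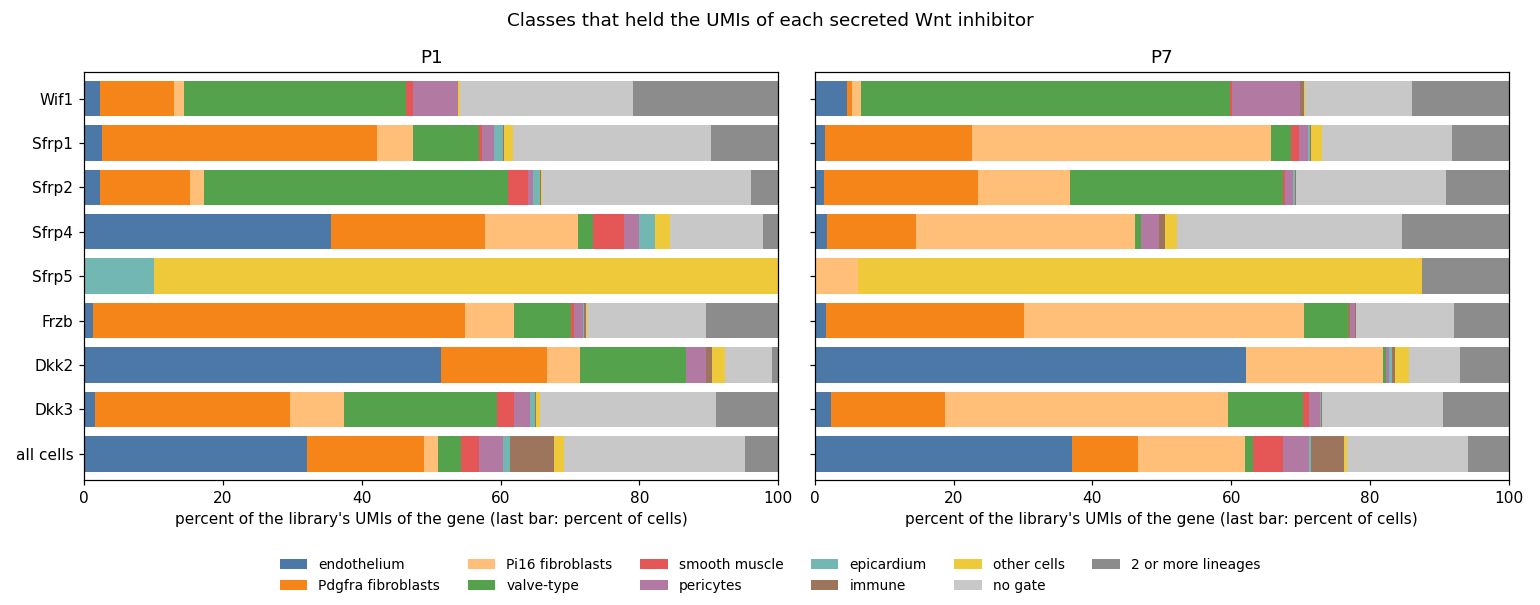
Share of the UMIs of each secreted Wnt inhibitor that lay in each class (x axis, percent; stacked bars) at P1 and P7, with the share of all cells in the lowest bar and cells of the remaining gates joined as other cells. Valve-type cells, 3.25% of P1 cells and 1.08% of P7 cells, held 32.0% and 53.2% of the Wif1 UMIs.

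Sfrp1 (ENSMUSG00000031548, chr8:23411502-23449632, plus strand) was, among the 7 main classes, spread over the stroma, with levels of the same order in fibroblasts, valve-type and epicardial cells at both ages. It was at 278 and 295 CPM in valve-type cells and at 130.4 and 137 CPM in epicardial cells, with intervals of the log2 ratio that included 0 in both. In Pdgfra fibroblasts it went from 198 CPM (191 to 206) at P1 to 258 CPM (249.6 to 267) at P7, a log2 ratio of 0.38 (0.31 to 0.46), and in Pi16 fibroblasts from 169 CPM (152 to 188) at P1 to 268 CPM (262 to 275) at P7. At P7 the intervals of valve-type cells and Pi16 fibroblasts overlapped. The share of Pdgfra fibroblasts with a Sfrp1 UMI was 71.8% and 85% (29.4% and 37% after thinning), against 3.43% and 3.88% of immune cells (0.654% and 1.33%), with median depths of 15514.5 and 15489 UMIs in these fibroblasts. Endothelium, at 9.41 and 7.75 CPM, was close to immune cells at 4.2 and 6.65 CPM.

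Sfrp2 (ENSMUSG00000027996, chr3:83766321-83774316, plus strand) was a second gene of the valve-type cells, where its level was 9.94-fold above the next class at P1 and 11.1-fold above it at P7. It went from 1956 CPM (1901 to 2013) at P1 to 2939 CPM (2854 to 3025) at P7 in these cells, a log2 ratio of 0.59 (0.53 to 0.65), which is within 2-fold. At least 10 Sfrp2 UMIs were found in 71 of 162 valve-type cells at P1 and in 59 of 92 at P7. The tenth of cells with the most Sfrp2 held 53.9% and 40.5% of its UMIs in the class. Pericytes, at 45.8 and 58 CPM, and endothelium, at 13.1 and 6.99 CPM, lay far below, and immune cells were at 3.23 and 6.05 CPM.

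In Pdgfra fibroblasts Sfrp2 was higher at P7, from 98.1 CPM (93 to 103) at P1 to 264 CPM (255 to 273) at P7, with a log2 ratio of 1.43 (1.34 to 1.52). It was 1 of 2 members past 2-fold among the 6 tested in this class, the other being Wif1 in the opposite direction, where 7.07% of all genes were past 2-fold (2.84% higher and 4.23% lower). The share of cells with a Sfrp2 UMI was 30.1% and 54.9%, or 11.2% and 23.4% after thinning, against 3.12% and 3.64% of immune cells. The Pi16 fibroblasts, at 105 and 80.4 CPM, did not share this difference in direction, and with the fibroblast classes joined the log2 ratio was 0.53. Pi16 fibroblasts numbered 102 at P1 and 1320 at P7, so the division of the fibroblasts by the Pi16 gate differed between ages. Among Pdgfra fibroblasts with at least 5 Sfrp2 UMIs (71 and 175 cells), Eln was at 3402 CPM against 531 CPM in those without Sfrp2 at P1, and Apoe at 1604 against 242 CPM at P7. Apoe, at 1900 against 737 CPM at P1, Pdlim3 and Pcolce2 were among the 25 leading genes of these cells at both ages.

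Smooth muscle cells had lower levels of Sfrp2, Frzb and Dkk3 at P7, which made 3 of 4 members tested, where 8.15% of all genes were past 2-fold (3.3% higher and 4.84% lower). Sfrp2 went from 197 CPM (175 to 220.2) at P1 to 13.4 CPM (9.99 to 17.5) at P7, a log2 ratio of -3.87 (-4.33 to -3.45). Dkk3 went from 78.1 CPM (64.8 to 93.3) at P1 to 15.4 CPM (11.8 to 19.9) at P7, a log2 ratio of -2.33 (-2.81 to -1.88), and Frzb from 11 to 1.54 CPM on 17 and 6 UMIs. Sfrp1, the other member tested, was within 2-fold at 23.9 and 42.4 CPM, and its log2 ratio turned to -0.22 after thinning. The lower level of Sfrp2 went with a group of P1 cells. Of the 129 P1 smooth muscle cells, 21 held 286 of the 305 Sfrp2 UMIs, and only 3 of 366 cells at P7 had at least 3. In these 21 cells Sost was at 982 CPM and Eln at 38008 CPM, against 8.2 and 2640 CPM in the P1 smooth muscle cells without Sfrp2. SOST (sclerostin) is a further secreted Wnt inhibitor, and Eln encodes elastin, the elastic fibre protein of large arteries. In the whole smooth muscle class, Eln was at 11195 CPM at P1 and 1632 CPM at P7, Fbln5 at 820 and 31.4 CPM, and Sost at 239 and 0.257 CPM. The part of these cells in the difference between ages was not tested.

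**Figure D3:**
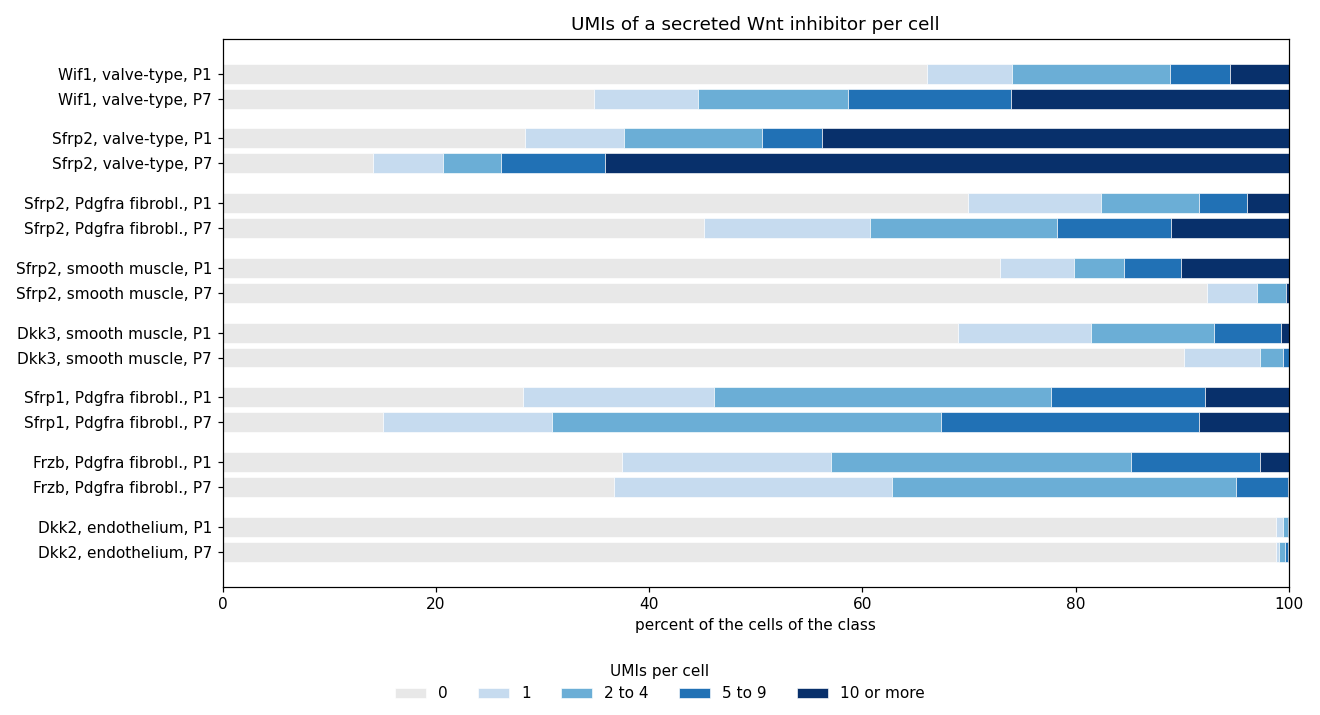
Share of cells (x axis, percent) with 0, 1, 2 to 4, 5 to 9 and 10 or more UMIs of a member, for selected members and classes at P1 and P7. In valve-type cells 10 or more Wif1 UMIs were found in 5.56% of cells at P1 and 26.1% at P7, whereas 10 or more Sfrp2 UMIs were found in 10.1% of smooth muscle cells at P1 and 0.273% at P7.

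Frzb (ENSMUSG00000027004, chr2:80411970-80447625, minus strand), a soluble Frizzled-like protein, was a fibroblast and valve-type gene. In Pdgfra fibroblasts it went from 126 CPM (119.8 to 132) at P1 to 89.3 CPM (84.2 to 94.7) at P7, a log2 ratio of -0.49 (-0.60 to -0.38), and in Pi16 fibroblasts from 109.8 CPM (96.1 to 125) at P1 to 64.2 CPM (61.1 to 67.5) at P7. In valve-type cells the order was the reverse, from 112 CPM (98.7 to 126) at P1 to 163 CPM (143 to 184) at P7. The intervals of Pdgfra fibroblasts and valve-type cells overlapped at P1, whereas valve-type cells were 1.82-fold above the fibroblasts at P7. The share of Pdgfra fibroblasts with a Frzb UMI was 62.5% and 63.3% (18.1% and 14.3% after thinning), against 2.18% and 1.21% of immune cells. Fewer cells had many UMIs, with 10 or more in 23 cells at P1 and 1 at P7. In pericytes Frzb was at 23.7 and 10.2 CPM, a log2 ratio of -1.21 (-1.96 to -0.50). With Wif1 it was 1 of 2 members of 5 past 2-fold in pericytes, where 5.94% of all genes were (2.69% higher and 3.25% lower).

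Sfrp4 (ENSMUSG00000021319, chr13:19623104-19632994, plus strand) and Sfrp5 (ENSMUSG00000018822, chr19:42197971-42202252, minus strand) were scarce. Sfrp4 had 45 UMIs at P1 and 117 at P7, and 16 of the 45 lay in a single endothelial cell. Of the 7 main classes, Pi16 fibroblasts had the highest level, with 6 UMIs at P1 and 37 at P7 (2.85 and 1.51 CPM), and no neighbouring classes in the order differed beyond their intervals at either age. With Wif1 it made 2 of 7 members past 2-fold in Pi16 fibroblasts, both lower at P7, where 11.2% of all genes were past 2-fold (5.03% higher and 6.17% lower), but its interval of -1.02 (-2.18 to 0.61) included 0. In the 6 P7 cells of this class with at least 2 Sfrp4 UMIs, Gdf10, a growth factor of the TGF-beta family, was at 379 CPM against 13.3 CPM in the cells without Sfrp4, and Wisp1 at 255 against 9.92 CPM.

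Sfrp5 had 20 UMIs at P1 and 16 at P7 in the whole libraries, or 0.339 CPM (0.207 to 0.523) and 0.164 CPM (0.0939 to 0.267), with a log2 ratio of -1.04 (-2.09 to -0.02). No UMI was found in endothelium, Pdgfra fibroblasts, valve-type cells, smooth muscle or pericytes at either age. Epicardial cells had 2 UMIs at P1, both in 1 cell, and 0 at P7. No immune cell had a Sfrp5 UMI either, with 0 of 321 and 0 of 412 cells, which allow shares of cells with a UMI, not of cells expressing the gene, of up to 0.935% and 0.728% when 3 cells are taken as the limit. Most of its UMIs lay in cells that are not described here, so nothing is said of its source.

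Dkk2 (ENSMUSG00000028031, chr3:132085292-132180304, plus strand) had 54 of its 105 UMIs at P1 and 151 of 243 at P7 in endothelium. This class held 18913698 of the 59026295 UMIs of all genes at P1 and 27883747 of 97432007 at P7. The Dkk2 level there went from 2.86 CPM (2.14 to 3.73) at P1 to 5.42 CPM (4.59 to 6.35) at P7, a log2 ratio of 0.91 (0.47 to 1.40), which is within 2-fold. At P1 the interval of Pi16 fibroblasts (0.772 to 5.55) overlapped it, and valve-type cells were higher at 6.69 CPM. Wif1 was the 1 member of 6 past 2-fold in endothelium, where 9.48% of all genes were (4.27% higher and 5.21% lower). The share of endothelial cells with a Dkk2 UMI was 1.25% and 1.2%, or 0.516% and 0.562% after thinning, against 0.312% and 0.243% of immune cells (0.327% and 0%). Endothelial median depths were 10718 UMIs at P1 and 7822 at P7. In the deeper Pi16 fibroblasts (19465 and 18186.5 UMIs) the share with a Dkk2 UMI was 1.96% and 2.05%, or 0% and 0.379% after thinning.

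The UMIs lay in few endothelial cells, as 9 cells with at least 2 Dkk2 UMIs held 43 of the 54 at P1 and 30 cells held 143 of the 151 at P7. At P7 these cells had Gja5, the connexin of arterial endothelium, at 456 CPM against 20.4 CPM in endothelial cells without Dkk2, Sema3g at 459 against 22.4 CPM and Hey2, an arterial Notch target, at 97.1 against 1.97 CPM. At P1 Hey2 was at 331 against 3.33 CPM, with UMIs in 8 of the 9 cells, but Gja5 and Sema3g were not among the 25 leading genes. The Wnt ligand genes Wnt4 and Wnt9b were at 576 and 367 CPM in the P1 cells, against 5.85 and 2.42 CPM, with UMIs in 4 and 3 of the 9. Nppc, the gene of C-type natriuretic peptide, led at P1, but its 355 UMIs lay in 3 of the 9 cells. Pthlh was high at both ages, at 879 against 10.3 CPM in 4 of 9 cells and at 374 against 7.52 CPM in 13 of 30. The Dkk2-bearing cells were deeper than the others, with medians of 14609 against 10709.5 UMIs at P1 and 12185 against 7789 at P7. These genes were chosen after their values were seen.

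Outside endothelium, Dkk2 had 16 UMIs in P1 valve-type cells, 10 of them in a single cell, and 1 UMI at P7. In Pdgfra fibroblasts 16 UMIs were counted at P1 (1.14 CPM) and 0 at P7, where 3 counts would be 0.239 CPM. In Pi16 fibroblasts it was at 2.38 and 1.95 CPM on 5 and 48 UMIs.

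Dkk3 (ENSMUSG00000030772, chr7:112116017-112159057, minus strand) was found in nearly every valve-type cell, 159 of 162 at P1 and 92 of 92 at P7, or 63% and 53.3% of them after thinning, against 1.31% and 0.798% of immune cells. Its level there went from 477 CPM (450.1 to 506) at P1 to 426 CPM (394 to 459.6) at P7, a log2 ratio of -0.16 (-0.30 to -0.03). It was lower at P7 in both fibroblast classes as well, with 103 and 81.1 CPM in Pdgfra fibroblasts and 187 and 102 CPM in Pi16 fibroblasts, neither past 2-fold. Valve-type cells were 2.55-fold above the Pi16 fibroblasts at P1 and 4.16-fold above them at P7. In pericytes it was at 67.8 and 34.3 CPM, just within 2-fold. The Dkk3-bearing smooth muscle cells of P1 also carried Sfrp2, which was at 633 CPM in the 24 cells with at least 2 Dkk3 UMIs, with a UMI in 20 of them, against 49.2 CPM in those without Dkk3.

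**Figure D4:**
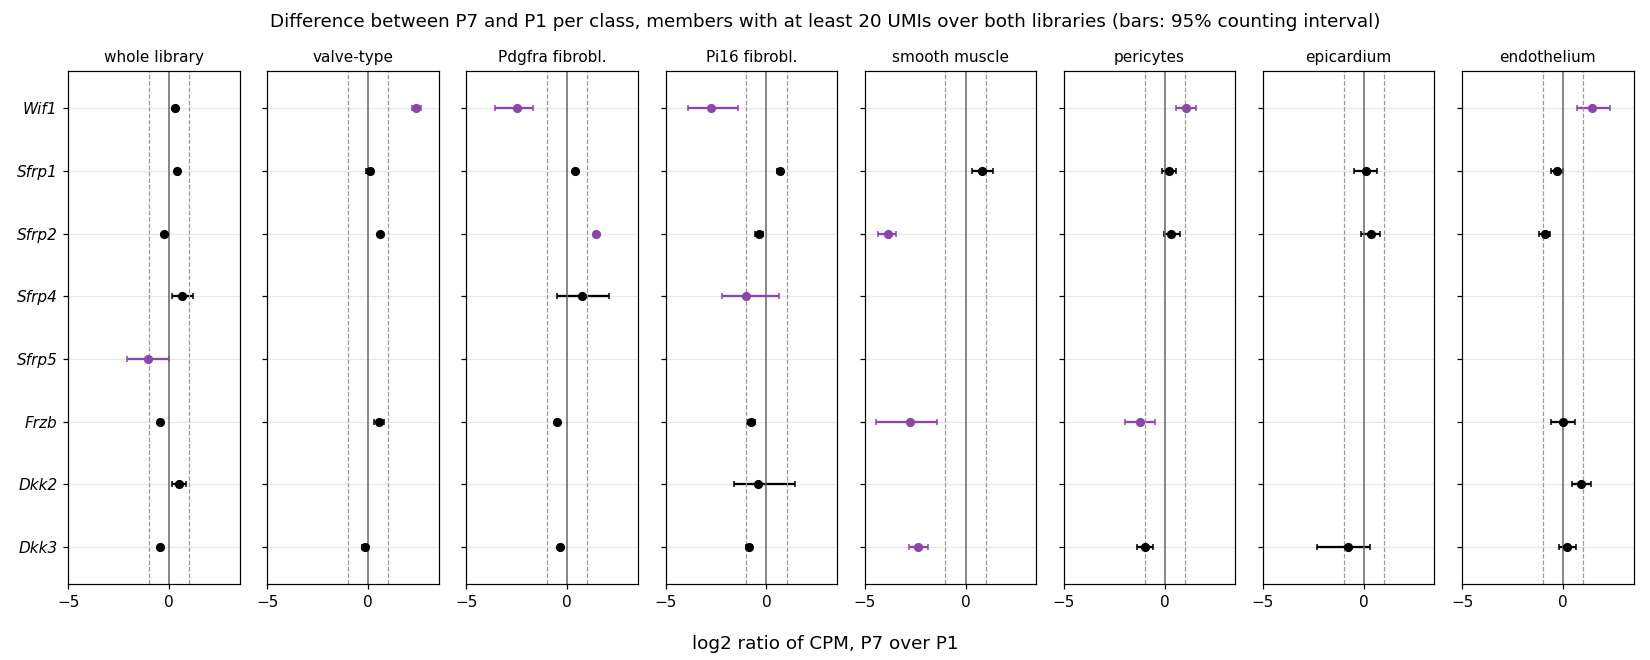
Log2 ratio of CPM, P7 over P1 (x axis), of each member with at least 20 UMIs over both libraries (y axis) in the whole libraries and in 7 classes, with 95% counting intervals as bars and values of at least 1 in size in purple. Wif1 lies at 2.39 in valve-type cells and at -2.51 in Pdgfra fibroblasts, and no member is past 2-fold in epicardial cells.

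In epicardial cells, none of the 3 members tested was past 2-fold, where 12.2% of all genes were (5.31% higher and 6.93% lower). Dkk3 was at 45.4 and 24.7 CPM there, and Sfrp2 went from 150.2 CPM (123 to 182) at P1 to 190.3 CPM (143 to 248) at P7. A single P1 cell held 45 of the 106 epicardial Sfrp2 UMIs. The Sfrp2 log2 ratio of 0.35 turned to -1.04 without cells with a Fmod or Scx UMI. Wif1 had no UMI in 47 and 21 epicardial cells, where 3 counts would be 4.25 and 10.6 CPM, so a low level was not detectable at this depth. A lung-type UMI was found in 26 of the 47 P1 cells and in 2 of the 21 P7 cells of the class. Without these cells, 1 member was past 2-fold there. The make-up of the class thus differed between ages, and its part in the epicardial ratios was not tested.

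The members differed in how they were distributed over the 7 classes of both libraries. As a description over 14 class values, which share libraries and depth, Pearson's r of log2(CPM + 1) was 0.87 for Sfrp2 with Dkk3, 0.86 for Frzb with Dkk3 and 0.82 for Sfrp1 with Dkk3. Dkk2 had no r above 0.09 with any of the other 5 members that had at least 100 UMIs. Among 13089 genes, those most like Wif1 were Col11a2 (r = 0.93), Col9a1 (0.90) and Npy (0.89), of which the first pair are collagens of cartilage and other fibrous tissue. Those most like Sfrp1 were Aldh1a1, Thbs2 and Col1a2, and those most like Sfrp2 were Ltbp3, Abi3bp and Fgfrl1. For Frzb they were Tmem167, Srpx2 and Vcam1, for Dkk3 6030419C18Rik, Scara3 and Slc7a6, and for Dkk2, with r of at most 0.83, Alkbh3, Dhrs11 and Spns1.

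Other genes of the pathway gave the setting for the inhibitors. Of 19 Wnt ligand genes, 11 had at least 20 UMIs, of which 1 was at least 2-fold higher and 4 were at least 2-fold lower at P7 in the whole libraries, beside 4.07% and 8.88% of all genes tested. Wnt10b was the higher one, with 9 UMIs at P1 and 369 at P7 (0.152 and 3.79 CPM). Of the latter, 271 lay in Pi16 fibroblasts, the class that was larger at P7. The Wnt10b level within that class was higher at P7 as well. It was 11.03 CPM there at P7, whereas the highest class at P1, epicardium, was at 4.25 CPM. Pdgfra fibroblasts had 0 Wnt10b UMIs at P1 and 12 at P7 (0.956 CPM). The part of class size in the Wnt10b difference was not tested. Wnt16 (15.9 and 2.32 CPM), Wnt11 (7.32 and 2.30 CPM), Wnt2 (7.27 and 2.57 CPM) and Wnt2b (0.203 and 0.0924 CPM) were lower. Wnt2b had only 12 and 9 UMIs, and the interval of its log2 ratio, -1.12 (-2.56 to 0.23), included 0. Wnt16 and Wnt11 had their highest level in valve-type cells, with 109.6 and 45.7 CPM for Wnt16 and 28.4 and 29.6 CPM for Wnt11. In that class, Wif1 was thus higher and Wnt16 lower at P7.

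Among 13 genes of Wnt secretion and the R-spondin module, 4 of the 11 tested were at least 2-fold lower at P7 and none was higher, beside 8.88% and 4.07% of all genes. Rspo3 was at 20.9 and 3.24 CPM, and in valve-type cells at 159.8 and 42.5 CPM. Rnf43 (0.728 and 0.246 CPM), Rspo2 (0.745 and 0.257 CPM) and Lgr5 (0.847 and 0.380 CPM) were the others, on 50 UMIs or fewer in each library. Of 8 other extracellular inhibitors, 6 were tested and 3 were at least 2-fold lower at P7, where 8.88% of all genes were. These were Sost (18.6 and 0.842 CPM), Notum, a secreted enzyme that inactivates Wnt ligands (2.08 and 0.185 CPM), and Dkkl1 (14 and 11 UMIs). Dkk1 had 1 UMI in each library and Dkk4 had 0 and 1.

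Of 15 receptor genes only Fzd10 was past 2-fold, where 12.9% of all genes were, on 42 and 34 UMIs, with Lrp5 at 28.6 and 23.0 CPM and Lrp6, the partner in Dkk binding, at 43.0 and 44.4 CPM. None of 10 intracellular genes was past 2-fold, so neither count stood far from that share. Of 8 feedback and target genes, Tcf7 was higher (134 and 1368 UMIs) and Sp5 lower (2.10 and 0.636 CPM). Tcf7 is also a T cell gene, and 707 of its UMIs at P7 lay in immune cells. Axin2, a feedback gene of the pathway, was at 4.34 CPM at P1 and 2.41 CPM at P7 in the whole libraries. Its log2 ratio there was -0.85 (-1.11 to -0.59), which is lower at P7 but within 2-fold. In valve-type cells Axin2 was at 17.2 CPM (12.3 to 23.3) at P1 and 16.1 CPM (10.4 to 23.7) at P7, with overlapping intervals.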

How the data were processed

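The authors aligned the reads to mm10 (GRCm38) with Cell Ranger 3.1.0 (per the labels) and deposited the UMI count of each gene in 7836 (P1) and 9077 (P7) cell barcodes, without normalisation. Barcodes with 200 to 8000 genes and at most 20% mitochondrial UMIs were kept. The gene limits follow the study, whose mitochondrial limit is not given in the sources used here, so 20% was set and the cells kept need not be those of the study. Gates required 2 UMIs of the marker (1 for Scx, and 1 for Pdgfra in Pi16 fibroblasts). No doublet caller was run, and cells passing gates of different lineages were left out. The exception was epicardial cells that also passed a fibroblast gate, which stayed in the epicardial class, so doublets of these kinds were not removed. A further gate was used in the same way, and its class is not reported here. UMIs were summed per class and library and scaled to CPM (python 3.11.15, numpy 2.4.6, scipy 1.17.1, pandas 2.3.3). Intervals are exact Poisson for CPM, Clopper-Pearson for shares and exact conditional binomial for ratios, all at 95%. Only the ratio intervals were tested on simulated data. Those data were Poisson counts, so the test does not cover UMIs clumped in few cells. Shares were also compared after drawing 2000 UMIs from every cell at random (thinning), with 574 P1 and 727 P7 cells below that depth dropped. The number of UMIs behind a value sets its interval, and 3 counts served as the limit for a sum of 0. The genes named are all members in every class, up to 5 genes per pathway list with the largest ratio past 2-fold, the 3 genes most like each member with at least 100 UMIs, and the markers. Lrp5, Lrp6, Axin2, Dkk1 and Dkk4 were named outside this rule. Genes of the cells that carry a member were chosen after their values were seen. The members and lists were chosen with earlier results of these data known. Gene positions are from GENCODE M21 and promoters from RefSeq (GRCm38.p6).

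Alternatives changed the mitochondrial limit, gates, doublet handling, depth, scaling, added counts and minimum of UMIs. Alternatives that left out the cell with the most UMIs of a member or cells with a Fmod or Scx UMI, or joined the fibroblast classes, were added after seeing the data.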

Additional observations from a re-analysis of the deposited data

Results flagged for a closer look

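Wif1 differed in direction between classes. Its log2 ratio, P7 over P1, was 2.39 in valve-type cells, 1.45 in endothelium and 1.04 in pericytes, but -2.51 in Pdgfra fibroblasts and -2.73 in Pi16 fibroblasts, and each of these values was past 2-fold. The ratio of Sfrp2 was 1.43 in Pdgfra fibroblasts and -3.87 in smooth muscle cells. With 1 library per age, these differences between classes were not tested. A single P7 cell held 55 of the 70 endothelial Wif1 UMIs of that library, and 21 of the 129 P1 smooth muscle cells held 286 of the 305 Sfrp2 UMIs. The Wif1 ratio in Pi16 fibroblasts rested on 10 UMIs at P1 and 18 at P7. In P1 Pdgfra fibroblasts, 8 cells held 62 of the 79 Wif1 UMIs, and 4 of these cells had a Fmod or Scx UMI.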

How the results depend on the processing

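The Wif1 ratio in valve-type cells, the Sfrp2 ratio in Pdgfra fibroblasts and the Sfrp2, Frzb and Dkk3 ratios in smooth muscle kept their direction under all alternatives run, with ranges of 2.13 to 2.50, 0.53 to 1.56, -4.16 to -3.12, -3.11 to -2.51 and -2.63 to -1.97. The class with the highest level of a member was the same in 11 to 14 of 14 cases. Wif1 reversed in Pdgfra fibroblasts with gates at 1 UMI (0.79). In endothelium it reversed without the 6% of cells with the most UMIs (-0.78), after thinning (-0.072), without the cell with the most Wif1 UMIs (-0.56) and without cells with a Fmod or Scx UMI (-1.84). In pericytes it reversed as the mean of per-cell CPM (-0.00021) and without cells with a Fmod or Scx UMI (-1.05). Sfrp4 reversed in Pi16 fibroblasts with gates at 3 UMIs (0.19).

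The number of members past 2-fold depended on the setting in most classes. It was 0 in the whole libraries without a mitochondrial limit, after thinning and at a minimum of 100 UMIs. In endothelium it was 0 without the cells with the most UMIs, after thinning, as the mean of per-cell CPM and at 100 UMIs, and 2 with no minimum. In Pdgfra fibroblasts it was 1 with gates at 1 UMI, after thinning and at 100 UMIs. In Pi16 fibroblasts it was 1 with cells of 2 lineages kept, without lung-type cells, after thinning and without the cell with the most UMIs of the member, and 0 at 100 UMIs. In pericytes it was 1 at a mitochondrial limit of 10%, after thinning and at 100 UMIs. In epicardial cells it was 1 with gates at 1 UMI, without lung-type cells, after thinning and without the cell with the most UMIs, and 4 with no minimum, which gave 2 in valve-type cells and 7 in smooth muscle. With Spearman's correlation, 7 of the 18 most similar genes were shared. The cause of these shifts was not tested, except that a higher minimum or thinning leaves fewer members to count. No paired analysis was possible because each age has 1 library, which leaves a single pair and no spread to estimate.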
